A study of Homo sapiens with 6 samples.

Results

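The peaks on the mitochondrial genome and in nuclear copies of mitochondrial genes were examined in RNA immunoprecipitation sequencing (RIP-seq) of SmD2. Members were all peaks on the mitochondrial chromosome, plus nuclear peaks whose summit lay in a RefSeq GRCh38 gene or pseudogene with a symbol starting MTND, MTCO, MTATP, MTCYB or MTRNR. They numbered 39 of the 256163 listed peaks: 24 on the mitochondrial chromosome and 15 in nuclear copies. SmD2, encoded by SNRPD2, is one of the Sm proteins that bind spliceosomal small nuclear RNAs as a ring, and the cells were HEK293T, a human embryonic kidney line. The labels give 3 samples overexpressing SNRPD2 (SNRPD2OE) and 3 control samples (Ctrl). One peak list per SNRPD2OE sample was analysed and the Ctrl samples were not analysed here, so SNRPD2OE and Ctrl cells were not compared. No label says that the replicates were separate cultures, so the spread between them may be technical.

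Mitochondrial DNA is transcribed from both strands into long precursors that carry the ribosomal RNAs, the mRNAs of respiratory chain subunits and the transfer RNAs. The tRNAs lie between most of the other genes, and cutting at their ends by mitochondrial RNase P and by ELAC2 releases the mature RNAs. Pieces of this genome have been copied into nuclear chromosomes during evolution. Such copies are annotated as pseudogenes, and a recent copy can share sequence with its source closely enough that a short read cannot be placed on one of them alone. How such reads were placed is not given in the sources used here, so each value below is uncertain between a mitochondrial gene and its closest copies.

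The RefSeq table holds 37 mitochondrial genes and 487 nuclear copies in 14 families, on 24 nuclear chromosomes. The sequences of the mitochondrial genome and of the copies were not used here. RefSeq miRNA entries of GRCh38.p14 overlapped copies at 3 miRNA genes, and their mature sequences are shown because they are stretches of sequence at hand from copies or the spaces between them. None of the 3 mature sequences met a peak of at most 1000 bp. Capitals mark the seed, bases 2 to 8, and the 3 seeds differ. In MIR12136, whose hairpin overlaps the end of MTCO1P12, a copy of COX1, is hsa-miR-12136 (chr1:632668-632685, minus strand), itself outside that copy. In MTRNR2L8 is hsa-miR-4485-3p (chr11:10508277-10508296, minus strand). In MTRNR2L13 is hsa-miR-1973 (chr4:116299750-116299768, plus strand).
hsa-miR-12136: gAAAAAGUcauggaggcc
hsa-miR-4485-3p: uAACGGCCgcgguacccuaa
hsa-miR-1973: aCCGUGCAaagguagcaua

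The 3 lists differed in form, which bears on every count below. They held 30111, 160931 and 65121 peaks in replicates 1, 2 and 3, with a median width of 77, 40 and 12199 bp, and in replicate 3 75.7% of peaks were wider than 1000 bp. Peaks of only 1 read made up 0%, 71.4% and 54.9% of the lists. These read numbers were worked out from the deposited fold and p-value of each peak. Of 5 marker genes of an epithelial kidney line, 4 (VIM, KRT8, KRT18 and PAX2) held a summit in every list and LHX1 in none. Of 5 markers of other cell types (ALB, CD3E, INS, MYH7 and GFAP), 0, 3 and 2 held one. A summit lay in 45.3%, 76.8% and 65.5% of all protein-coding genes, and 38.5% of them held one in all 3 lists.

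Mitochondrial RNAs had peaks in replicate 3 and in neither of the other lists. Replicate 3 listed 24 peaks on the mitochondrial chromosome, against 0 in replicate 1 and 0 in replicate 2. In lists 1 and 2 the peak numbers ran from chromosome 9 to chromosome X without a gap (29961 to 29962, and 160393 to 160394). In list 3 the 24 mitochondrial peaks filled the numbers between 64247 and 64272. The lists hold only peaks with an unadjusted p of at most 0.01, so an absent peak gives no level of the RNA. The 24 peaks were narrow, 39 to 395 bp wide, and had 11 to 43 reads at the summit (median 22.5). All 24 had at least 10 reads, against 33.3% of the 15813 nuclear peaks of at most 1000 bp in the same list. Their background was also higher, with a median of 0.677 scaled reads against 0.0780, and the median fold was 3.19 against 2.62. A peak over a higher background needs more reads to reach a p of 0.01, so the read numbers of the 24 follow in part from the filter. Their deposited q-value was under 0.05 for 4 of the 24, or 16.7%, against 5.43% of those nuclear peaks.

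**Figure D1:**
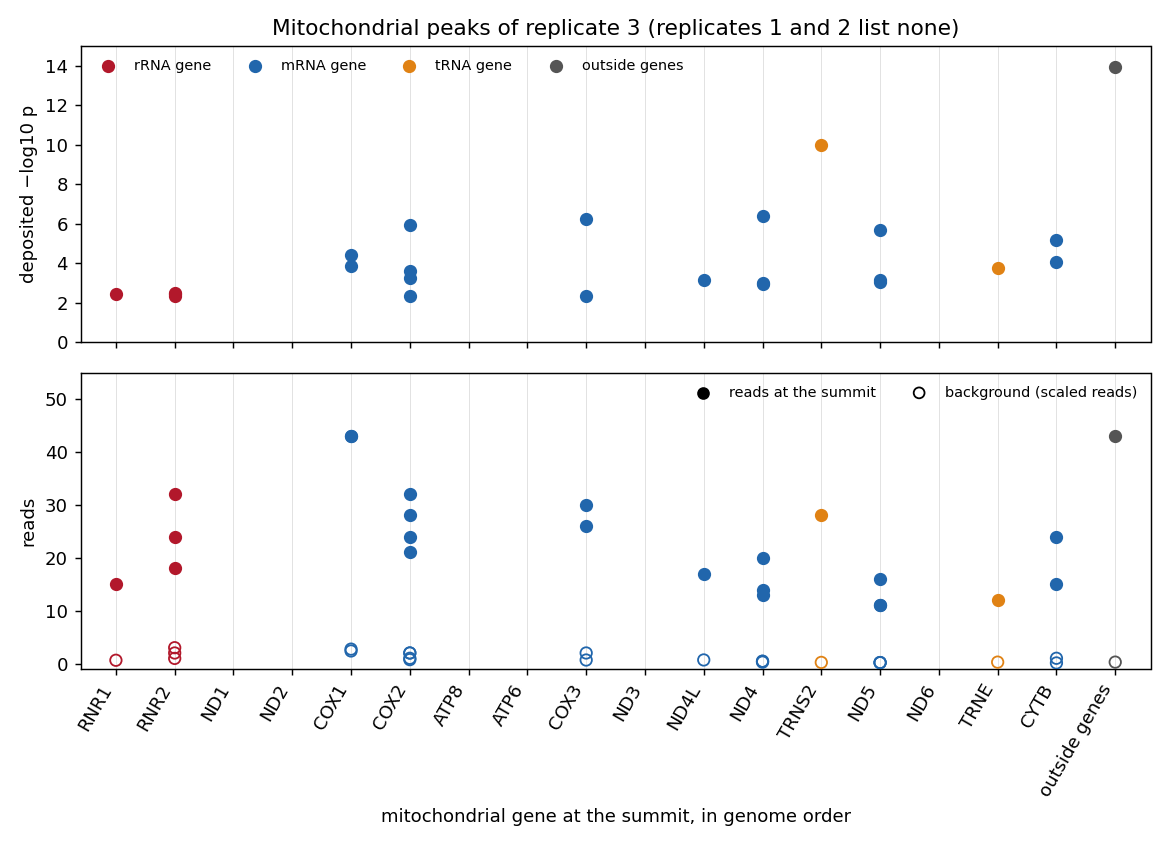
Deposited −log10 p (upper panel) and reads at the summit with the caller's background in scaled reads (lower panel) for each of the 24 mitochondrial peaks of replicate 3, by the gene at the summit in genome order. Each point is 1 peak. The peak with its summit outside genes, with a −log10 p of 13.9, and the peak in TRNS2, with 9.98, stand above the rest. ND1, ND2, ATP8, ATP6, ND3 and ND6 hold no point.

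The strongest mitochondrial peak had its summit outside any annotated gene, at the start of the noncoding control region, which holds the promoters and the origin of heavy-strand replication. The peak covered chrM:15965-16083 in GRCh38, with its summit at 16049, 26 bp past TRNP, the tRNA gene for proline. It had 43 reads, which count as 10.9 after scaling, over a background of 0.273. The deposited fold was 9.35, with a −log10 p of 13.9 and a −log10 q of 7.97, and it ranked 106 in the list by −log10 p. TRNP spans 15956 to 16023, so most of that gene lay under this peak.

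The next strongest peak lay over adjoining tRNA genes, those for histidine and for 1 of the serine tRNAs. It covered chrM:12159-12264 and overlapped TRNH and TRNS2, with its summit in TRNS2. It had 28 reads over a background of 0.218, a fold of 6.65 and a −log10 p of 9.98. Its −log10 q was 4.43, and it ranked 256 in the list. One more tRNA gene held a summit, TRNE for glutamate, where a 39 bp peak had 12 reads, a fold of 3.18 and a −log10 q of 0. Of the 22 mitochondrial tRNA genes, 2 held a summit and 4 were overlapped by a peak. Summits fell at 1.33 per kb of tRNA gene, against 1.49 per kb of mRNA gene and 1.59 per kb of rRNA gene, so the tRNA genes as a class did not hold more summits for their length. Of the 24 summits, 4 lay within 50 bp of a tRNA gene, and the share of the genome that near to one was not worked out.

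Of the 13 mitochondrial mRNAs, 7 held a summit, with 17 summits in all. The cytochrome c oxidase subunits (complex IV) had the most reads per peak among the mRNAs, 21 to 43 in 8 peaks. Their median background was 2, and a peak over such a background needs more reads to be listed. COX1 had 2 peaks with 43 reads each, folds of 3.19 and 3.52 and backgrounds of 2.73 and 2.38. COX2 had 4 peaks, with 28, 21, 24 and 32 reads in genome order, and the first of them, 42 bp from the start of the gene, had the highest fold of the 4, at 4.65. COX3 had 2 peaks, with 30 reads and a fold of 5.15 at its first and 26 reads and a fold of 2.53 at its last. The COX3 peak at chrM:9263-9431 was one of the 4 mitochondrial peaks with a deposited q-value under 0.05, with a −log10 q of 1.36.

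The subunits of NADH dehydrogenase (complex I) had fewer reads per peak, 11 to 20 in 7 peaks, over a background with a median of 0.269. At the complex IV genes the median background was 2, and the median folds were 3.19 for complex I and 3.18 for complex IV. ND4 had 3 peaks, with 14, 13 and 20 reads and folds of 3.19, 2.98 and 4.79. The last of these, 340 bp wide with its summit 174 bp before the end of the gene, had a −log10 q of 1.47. ND5 had 3 peaks with 16, 11 and 11 reads and folds of 4.23, 3.19 and 3.24, and ND4L had 1 peak with 17 reads and a fold of 3.16. ND1, ND2, ND3 and ND6, which encode the remaining complex I subunits of this genome, held no summit.

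CYTB, the subunit of complex III, had 2 peaks. The first was the widest on the mitochondrial genome, at 395 bp, with 24 reads and a fold of 3.54, and the other had 15 reads and a fold of 4.30. The ATP synthase genes ATP6 and ATP8 held no summit. The rRNA genes had peaks of low fold. RNR1, the small subunit rRNA, had 1 peak with 15 reads and a fold of 2.96. RNR2, the large subunit rRNA, had 3 peaks with 24, 32 and 18 reads and folds of 2.36, 2.28 and 2.82. These 4 peaks had a −log10 p of 2.34 to 2.48, among the lowest on the mitochondrial genome. Peaks in COX2 and COX3 also had a value of 2.34. The labels' extraction text describes removal of ribosomal RNA, and its part in these values was not tested.

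Nuclear copies rarely held a summit. Summits lay in 0, 6 and 6 of the 487 copies in replicates 1, 2 and 3, or 0%, 1.23% and 1.23%. Exact binomial intervals at 95% ran from 0.453% to 2.66% for each of the 6 of 487, and the interval for 0 of 487 reached 0.755%. By the simpler limit of 3 counts, used for the other counts of 0 as well, 0 of 487 allows a share of up to 0.616%. These limits cover counting error only, and copies that share sequence are not independent. The same lists placed a summit in 5.35%, 16.9% and 13.2% of the 16358 other pseudogenes. The mean share was 0.821% ± 0.711 in the copies and 11.8% ± 5.89 in the other pseudogenes (SD, n = 3 replicates). The share was lower in the copies in 3 of 3 lists, with differences of -5.35, -15.7 and -11.9 percentage points (copies minus other pseudogenes) and a mean of -10.98 ± 5.22. With 3 lists the exact two-sided permutation test cannot go below p = 0.25, and that was its value. Other pseudogenes include much longer loci. Among loci of 200 to 2000 bp, a range chosen after the data were seen, the shares were 0%, 1.12% and 1.34% of 448 copies and 4.17%, 13.1% and 10.9% of 10140 other pseudogenes.

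**Figure D2:**
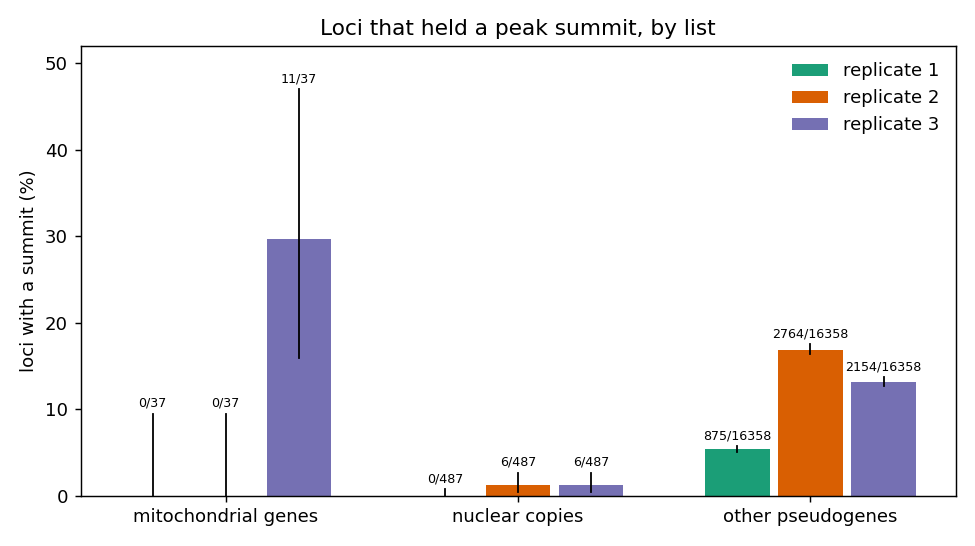
Share of loci that held a peak summit (%), for mitochondrial genes, their nuclear copies and other pseudogenes, with a bar for each replicate. Lines are exact 95% binomial intervals and cover counting error only; numbers above give loci with a summit over all loci. Nuclear copies lie at 0%, 1.23% and 1.23%, below the other pseudogenes in every replicate.

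The 12 copies with a summit were all different: 0 copies held one in more than 1 list. This holds for summits and not for overlap. Peaks of replicate 3 overlapped MTRNR2L4, MTRNR2L6 and MTCO1P27, which held summits in replicate 2. That list overlapped 60.8% of all copies. Among other pseudogenes, whose share was higher in each list, 9.05% held a summit in at least 2 lists and 2.70% in all 3. Summits in copies were so few in each list that a shared one could hardly be seen. The comparison therefore does not show how well copies repeat. In replicate 3 a summit lay in 11 of the 37 mitochondrial genes (29.7%) and 1.23% of the copies. In replicate 2 it lay in 0 of the 37 mitochondrial genes, which allows a share of up to 8.11% by 3 counts and 9.49% by the exact interval, and in 1.23% of the copies, and in replicate 1 in neither. Over the replicates the mean difference, mitochondrial genes minus copies, was 9.09 points ± 16.8 (SD, n = 3, exact two-sided permutation test, p = 1). Without replicate 3 it was -0.616 points, so the direction rests on that list.

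The copies in replicate 2 had almost no reads. Of the 6 peaks, 5 had 1 read at the summit, a width of 40 bp and a −log10 q of 0. They lay in MTCYBP18 and MTCYBP29, copies of CYTB, in MTND5P39, a copy of ND5, and in MTRNR2L4 and MTRNR2L6, with folds of 1.88 to 1.94. The remaining peak, in MTCO1P27 on chromosome 19 (chr19:12504718-12504792), had 2 reads and a fold of 2.90. A peak of 1 read is the commonest kind in this list, so these 5 are of the kind most of the list holds. With at least 10 reads required, replicate 2 had a summit in 0 copies.

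The MTRNR2L genes are the only copies of an rRNA gene here, and they are known for open reading frames resembling humanin, a small peptide described from the RNR2 sequence. Of these 13 loci, 0, 2 and 0 held a summit in replicates 1, 2 and 3. Both were the 1-read peaks above. MTRNR2L1, MTRNR2L2, MTRNR2L3, MTRNR2L5, MTRNR2L7, MTRNR2L8, MTRNR2L9, MTRNR2L10, MTRNR2L11, MTRNR2L12 and MTRNR2L13 held none. RNR2 itself held 3 summits in replicate 3. The shares of rRNA and mRNA copies differed by 0, 14.5 and -1.27 points (rRNA minus mRNA copies), a mean of 4.42 ± 8.78 (SD, n = 3, exact two-sided permutation test, p = 1), so no difference was shown. The hsa-miR-4485-3p in MTRNR2L8 and hsa-miR-1973 in MTRNR2L13 printed above met no peak of at most 1000 bp in any list.

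In replicate 3 the copies with a summit fell into 2 kinds. For MTCO2P27, MTND2P41 and MTCO1P8 the summit belonged to a peak of 17167, 28885 and 30669 bp, with 1, 2 and 1 reads and a −log10 q of 0. Such wide peaks also supplied the summit alone in 78.2% of the other pseudogenes that had one in this list. They touched most loci: 60.8% of the copies and 65.1% of the other pseudogenes overlapped a peak by at least 1 bp in replicate 3. In replicates 1 and 2 this share was 0% and 1.44% of the copies, against 5.39% and 17.1% of the other pseudogenes. The other 3 copies, MTND2P28, MTCO1P12 and MTATP6P1, held 6 narrow peaks and all lay on chromosome 1. With peaks of at most 1000 bp alone, 3 of the 487 copies held a summit in replicate 3, against 2.87% of the other pseudogenes.

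**Figure D3:**
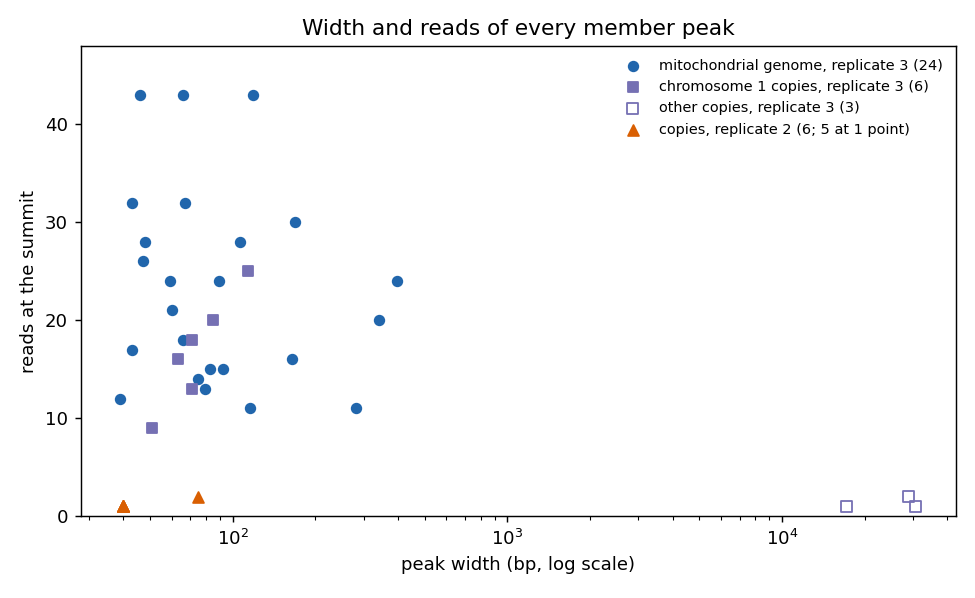
Reads at the summit against peak width (bp, log scale) for the 39 member peaks, by place and replicate; each point is 1 peak, and 5 peaks of replicate 2 fall on 1 point. The chromosome 1 copies of replicate 3, with 9 to 25 reads, lie among the mitochondrial peaks, while the copies elsewhere have 1 or 2 reads.

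These 3 copies belong to 1 block of 7 neighbouring copies, MTND1P23, MTND2P28, MTCO1P12, MTCO2P12, MTATP8P1, MTATP6P1 and MTCO3P12, at chr1:629062-634922. The block keeps the order of the mitochondrial genome from ND1 to COX3. Apart from its outer ends, each copied gene boundary lay 625169 to 625178 bp above the mitochondrial one, so a position in the block can be read as a mitochondrial position by subtracting 625169. The block spans 5861 bp and corresponds to 3893 to 9753 of the mitochondrial genome. All of it lies within the span of LOC102724250, annotated as protein-coding, and the counting of a peak for one or the other is ambiguous. In replicates 1 and 2 the block met 0 peaks of any kind.

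In replicate 3 the block had 9 narrow peaks, 6 with a summit in the named copies and 3 with a summit between them. MTCO1P12, the copy of COX1, had 4 peaks with 18, 25, 20 and 13 reads and folds of 4.82, 3.67, 4.03 and 2.85. MTATP6P1, the copy of ATP6, had 1 peak with 16 reads, a fold of 4.68 and a −log10 q of 2.33, the highest among the copies. MTND2P28, the copy of ND2, had 1 peak with 9 reads and a fold of 3.02. MTND1P23, MTCO2P12, MTATP8P1 and MTCO3P12 held none.

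Between the named copies, 3 peaks had their summit where the block copies tRNA genes. The rule does not count them as members. The mitochondrial equivalents of these summits were TRNQ, TRNN and TRNS1, the tRNA genes for glutamine, asparagine and a serine tRNA. All of these are encoded on the opposite strand to most mitochondrial genes. The peak at the TRNN equivalent, chr1:630773-630917, was the strongest of the block, with 25 reads over a background of 0.156, a fold of 6.35 and a −log10 q of 3.99. The peak at the TRNQ equivalent, chr1:629516-629857, had 13 reads and a fold of 3.96. It reached into MTND2P28, which starts at 629640. The peak at the TRNS1 equivalent, chr1:632529-632656, had 16 reads and a fold of 4.38. It began inside MTCO1P12, which ends at 632616. This last peak had its summit inside the hairpin of MIR12136 (chr1:632615-632685, minus strand). That hairpin corresponds to mitochondrial positions 7446 to 7516, over TRNS1, which spans 7446 to 7514. The peak covered 42 of its 71 nt, in capitals here, and ended before the mature hsa-miR-12136.
MIR12136: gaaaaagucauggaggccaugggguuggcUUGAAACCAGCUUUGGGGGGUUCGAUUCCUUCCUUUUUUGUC
The hairpin met no peak in replicate 1 or 2. On the mitochondrial genome itself TRNQ, TRNN and TRNS1 held no peak. Of 21 nuclear copies of mitochondrial tRNA genes annotated by the symbol prefix NMTR, 0 held a summit in each list, which allows a share of up to 14.3% by 3 counts and 16.1% by the exact interval.

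Peaks in the block mostly did not overlap peaks on the same stretch of the mitochondrial genome. The stretch from 3893 to 9753 held 7 of the 24 mitochondrial peaks, in COX1, COX2 and COX3, and the block held 9. After subtracting the offset, 1 of the 9 block peaks overlapped a mitochondrial peak, by 18 bp in COX1. Such narrow peaks can miss each other by position alone, and how many would overlap by position alone was not worked out. The first mitochondrial COX1 peak had its summit at 6023, and MTCO1P12 peaks on both sides of it had equivalent summits at 5947 and 6063. COX2 had 4 mitochondrial peaks and its copy MTCO2P12 had none. COX3 had a mitochondrial peak in the stretch, with 30 reads, and its copy MTCO3P12 had none. ND2 and ATP6 had no mitochondrial peak, and their copies held 1 summit each. Block peaks had 9 to 25 reads (median 16) over a median background of 0.156, and the mitochondrial peaks of the stretch had 21 to 43 reads (median 30) over a median background of 2. The median fold was 4.03 in the block and 3.19 on the mitochondrial stretch. Folds are the authors' values within 1 list. Reads may be split between the block and the stretch, whose sequence identity was not measured, so the 2 sets are described and not tested. The part of shared sequence in these positions was not tested.

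**Figure D4:**
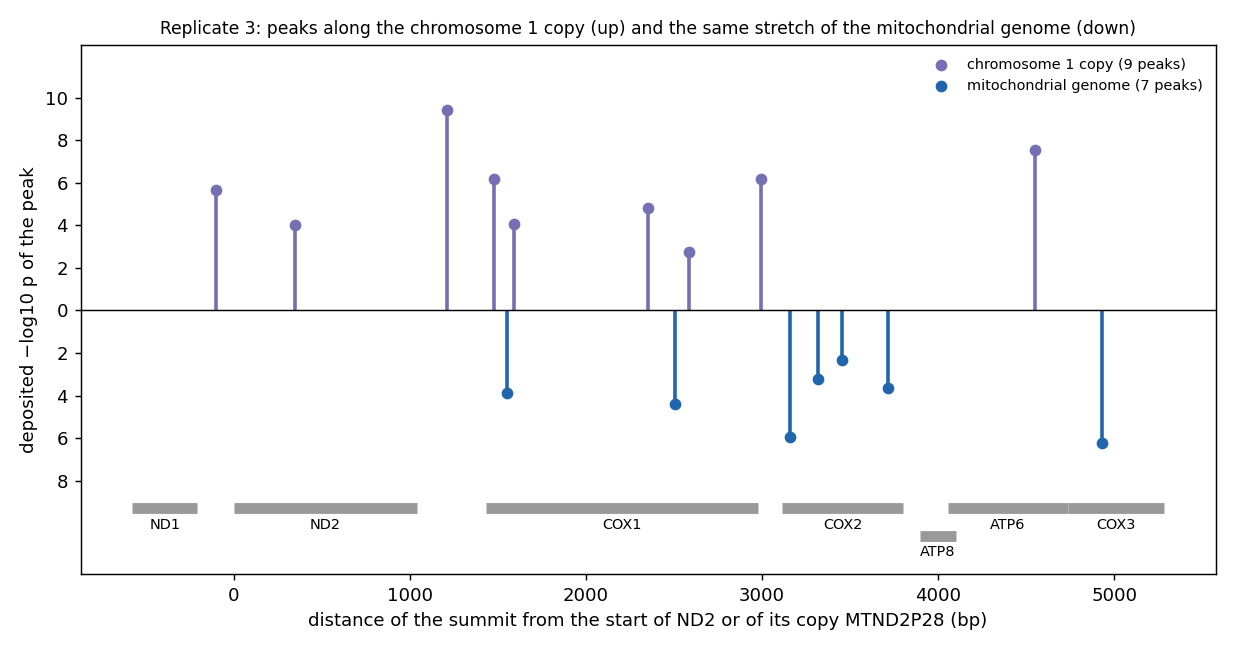
Deposited −log10 p of the peaks of replicate 3 by distance (bp) from the start of ND2 or of its copy MTND2P28, with the 9 peaks of the chromosome 1 block drawn upward and the 7 peaks of the same mitochondrial stretch drawn downward. Grey bars mark the mitochondrial genes. The block has peaks left of COX1 and over ATP6 where the mitochondrial genome has none, and COX2 and COX3 have only mitochondrial peaks.

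By family, 7 of the 14 families had a copy with a summit in any list. COX1 had 2 mitochondrial summits and 3 of its 58 copies held one in some list. RNR2 had 3 and 2 of its 13 copies held one, and CYTB had 2 and 2 of its 45, all of these copies in replicate 2. COX2 had 4 summits in replicate 3 and 1 of its 34 copies held one, by a wide peak. ND4 had 3 summits and 0 of its 40 copies held one, and ND5 had 3 and 1 of its 45 copies held one, in replicate 2. COX3 had 2 summits and 0 of its 47 copies held one. ND2 had 0 summits and 2 of its 41 copies held one, MTND2P28 and, by a wide peak, MTND2P41. The 12 copies with a summit had a median length of 1026.5 bp, against 672 bp for the 475 without, and 8 of the 12 touched another annotated gene, as did 216 of the 475.

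Nuclear genes that make, cut and modify mitochondrial RNA often held summits. In the list of mitochondrial RNA synthesis and processing, 22, 26 and 25 of 28 genes held a summit, or 78.6%, 92.9% and 89.3%, against 45.3%, 76.8% and 65.5% of protein-coding genes. Gene length was not matched. LRPPRC, which stabilises mitochondrial mRNAs, had 29, 27 and 22 reads at its best peak in replicates 1, 2 and 3, and TBRG4 (FASTKD4), a mitochondrial RNA-binding protein, had 26, 23 and 37. The RNase P subunits TRMT10C, HSD17B10 and PRORP and the tRNA 3′ end nuclease ELAC2 held summits in every list, with 12, 12 and 12 reads for ELAC2. So did 20 of the 28 genes (71.4%), against 38.5% of all protein-coding genes. FASTK, another mitochondrial RNA-binding protein, held 0 summits in every list, and SLIRP, the partner of LRPPRC, held 0, 2 and 0. Of 5 mitochondrial pseudouridine synthases, 5, 5 and 4 held a summit. RPUSD3, which modifies mitochondrial mRNA, had 15, 12 and 15 reads, TRUB2 had 18, 16 and 16, and PUS1 was the one without a summit in replicate 3. Of 77 mitochondrial ribosomal protein genes, 53, 61 and 53 held a summit, or 68.8%, 79.2% and 68.8%. These shares were close to those of protein-coding genes in replicates 2 and 3 and above the 45.3% in replicate 1. The median length of these genes was 8618 bp, against 24130 bp for protein-coding genes, and length was not matched here either.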

How the data were processed

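RIP-seq peak lists of 3 SNRPD2OE samples were analysed, 1 list per sample. The genome build was GRCh38; the submitters' processing notes name MACS2 2.2.9.1, STAR 2.7.10b and cutadapt 4.2. Not given in the sources used here are the library behind the caller's background, the strand, and how duplicates and reads with several placements were treated. The deposited fold is a ratio of scaled pileup plus 1 to background plus 1, and the deposited −log10 p-value and −log10 q-value are the caller's. The deposited score is the whole part of 10 times the −log10 p. Other deposited columns give starts, ends and summits. Of each list, 828, 5158 and 1883 peaks numbered before chromosome 1 were not analysed here.

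Reads at a summit were the whole number whose −log10 p came within 0.002 of the deposited one, with 1 read counting 0.599, 1 and 0.254 in the scaled pileup of replicates 1, 2 and 3. This solved all peaks but 1, in replicate 3, and recovered known numbers in simulated peaks. Library depth is otherwise unknown, and the highest number was 78, 80 and 78 reads, beside a smallest peak width of 39, 40 and 39 bp. Whether a limit on duplicate reads capped the read numbers was not tested.

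A locus was counted where a summit lay in its RefSeq span. Python 3.11.15, pandas 2.3.3, numpy 2.4.6 and scipy 1.17.1 were used. Differences were tested by exact permutation of signs over lists. Named genes were, by rule, mitochondrial genes with a peak, copies with a summit in all or 2 lists (there were none), the best copy of each family, the 5 copies with the highest −log10 p in each list, and all MTRNR2L genes. The remaining copies with a summit, those of the block, and the nuclear genes named from the lists of mitochondrial RNA proteins were chosen after their values were seen. Members and lists were chosen with earlier results of these data known. The comparison of mitochondrial genes with copies, the count over any list, the block and the miRNAs were added after the data were seen. Alternatives were a −log10 q of at least 3, at least 10 reads, peaks of at most 1000 bp, overlap by 1 bp, lists of equal length, loci in no other gene, loci of at least 200 bp or of 200 to 2000 bp, values by the highest fold, and leaving out each replicate.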

Additional observations from a re-analysis of the deposited data

How the results depend on the processing

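The lower share of nuclear copies with a summit, against other pseudogenes, kept its direction in every setting run, from -0.732 percentage points at a −log10 q of at least 3 to -12.98 among loci of at least 200 bp, and from -8.64 to -13.8 without each replicate in turn. No setting could pass the exact permutation test. At a −log10 q of at least 3 the mean share was 0% in copies and 0.732% in other pseudogenes, 0 copies held a summit, and 2 mitochondrial peaks remained listed, with 1 mitochondrial gene holding a summit. With at least 10 reads the mean share of other pseudogenes was 1.65% and 2 copies held a summit. By overlap of 1 bp the mean shares were 20.7% in copies and 29.2% in other pseudogenes, and 298 copies were met, since the wide peaks of replicate 3 then count. Copies with a summit in any list numbered 4 with lists of equal length, 4 among loci in no other gene, and 6 to 12 without each replicate. The copies in all 3 lists stayed at 0. Mitochondrial peaks numbered 0 to 24, and mitochondrial genes with a summit 0 to 11, without each replicate. They were 0 without replicate 3. The difference of rRNA minus mRNA copies reversed to -0.141 points with at least 10 reads, -8.14 by overlap, -0.281 with lists of equal length and -0.513 among loci in no other gene, and ranged from -0.633 to 7.27 without each replicate. It rests on 2 peaks of 1 read. The difference of mitochondrial genes minus copies reversed to -9.03 points by overlap, and ranged from -0.616 to 14.2 without each replicate. No paired analysis was possible because the Ctrl samples were not analysed here, so no 2 groups of samples share replicate numbers; sets of loci were compared within each list. Read numbers limit what single copies can show: outside chromosome 1 no copy had a peak of more than 2 reads.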
